A study of Solanum lycopersicum with 4 samples.

Results

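Gene pairs that overlap on opposite strands were examined in the leaf transcriptome of *ddm1* and WT tomato plants. Genes of chromosomes 1 to 12 that the deposited table counts over a single interval were taken, and a gene was a member when its span shared at least 1 bp with such a gene of the other strand. This gave 1732 genes in 898 pairs, out of 35479 such genes and 35821 genes in the whole table. The rule used positions and strands only, and no expression value. Poly(A) RNA had been taken from leaf 4 of M82 plants, aged 1 month and kept at 24°C with 16 h of light, in 2 libraries of *ddm1*, the double mutant *Slddm1a/Slddm1b*, and 2 libraries of WT. All plants shared the M82 background, and the mutation was carried by the whole plant rather than by a chosen tissue. The deposited values are raw read counts per gene, made from directional libraries and counted by strand, so that reads of the plus gene and of the minus gene of a pair were kept apart even where the spans cover the same bases.

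DDM1 is a chromatin remodeler that, in plants, helps DNA methyltransferases to reach nucleosome-bound DNA and keeps transposable elements silent. Genes that overlap on opposite strands yield transcripts that are complementary over the shared stretch, called natural antisense transcripts. Such pairs are named by their geometry. In convergent pairs the genes run towards each other and share their 3′ ends, in divergent pairs they share their 5′ ends, and in nested pairs the span of one gene lies wholly inside the other. In plants, transcription of one strand can lower or raise the output of the other, and paired transcripts can form double-stranded RNA.

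Of the 898 pairs, 386 were convergent (43.0%), 96 divergent (10.7%) and 416 nested (46.3%). The overlap had a median of 218.5 bp, with quartiles of 94 and 509.75 bp and a range from 1 to 13578 bp. In convergent pairs it covered a median of 9.55% of the shorter gene, and in divergent pairs 37.9%. Inner genes of nested pairs were short, with a median length of 249 bp inside outer genes with a median of 6027 bp. Most members, 1681, were in a single pair, while 51 were in several (45 in 2, 3 in 3, 2 in 4 and 1 in 8). The gene in 8 pairs, on the minus strand at chr1:2479245-2493002, had 0 reads in every library. Members made up from 3.24% of the genes of chromosome 11 to 6.33% of those of chromosome 2. Identifiers of the TomatoPan series, which the table uses beside the Solyc series, were carried by 19.8% of the members and by 4.21% of the other genes on the chromosomes. The table pairs no nuclear identifier with a name or a function and gives spans rather than exons, so pairs are described by their position in the M82 V1.0 assembly, and whether an overlap lies in exons, introns or UTRs was not analysed here.

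The libraries held from 5462981 to 6887057 counts, and members took 5.51% and 5.50% of them in *ddm1* and 5.62% and 5.71% in WT. Both *ddm1* libraries lay below both WT libraries, with means of 5.50% ± 0.00785 (SD, n = 2) and 5.66% ± 0.0648 (SD, n = 2). The log2 ratio was -0.04, and a two-sided exact permutation test gave p = 0.33, the smallest that 2 against 2 libraries allow. Members of convergent pairs took most of these reads, 3.37% in *ddm1* and 3.51% in WT on average, while inner genes of nested pairs took 0.0931% and 0.0895%. Within a genotype the replicates differed by more than sampling noise (chi-square per degree of freedom 5.23 for *ddm1* and 4.42 for WT). The methods call them independent biological replicates. The DDM1 genes are not named in the table, so the genotype labels could not be checked on them. Nuclear leaf markers are not named either. The leaf label was checked on 6 plastid genes, which had reads in all libraries and fewer in both *ddm1* libraries than in either WT library. The counts of rbcL, the large subunit of the carbon-fixing enzyme Rubisco, were 989 and 834 in WT and 456 and 554 in *ddm1*, and those of psaA, a core subunit of photosystem I, were 374 and 236 in WT and 38 and 36 in *ddm1*. The part of this difference in the results on the pairs was not tested.

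Whether the loss of DDM1 moved the members was asked in a fit of all genes. A low-count filter kept 1019 of the 1732 members, and 388 members had 0 reads in all libraries. The share that passed differed by geometry: 599 of 772 convergent members, 92 of 192 divergent members, 308 of 388 outer genes and only 38 of 416 inner genes. Of the 1019 members tested, 256 rose in *ddm1* (25.1%) and 265 fell (26.0%) at an adjusted p-value under 0.05 (edgeR's quasi-likelihood test, Benjamini-Hochberg over 21289 genes). Over all genes tested, 25.3% were called up and 23.7% down. The members were therefore close to the background in both directions. The median log2 fold change was -0.03 over the members tested and 0.02 over all genes tested, and the median absolute value was 0.51 against 0.54. With a log2 fold change beyond 1 as well, 155 members rose (all genes: 16.5%) and 129 fell (all genes: 13.1%). Called members that rose had a median log2 fold change of 1.38, and those that fell one of -0.99. Per kb of span, the median level of the members tested was 7.78 normalised CPM in WT and 8.45 in *ddm1*, against 8.41 and 8.83 for all genes tested.

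By geometry, 150 of the 599 convergent members tested rose and 167 fell. Among 92 divergent members 24 rose and 18 fell. Among 308 outer genes 77 rose and 76 fell, and among 38 inner genes 10 rose and 9 fell. In each geometry the share that rose was near the 25.3% of all genes tested. The share that fell was 27.9% of convergent members, 19.6% of divergent members, 24.7% of outer genes and 23.7% of inner genes. Over all genes tested it was 23.7%. By strand, 138 of 514 plus members rose (26.8%) and 136 fell (26.5%), while 118 of 505 minus members rose (23.4%) and 129 fell (25.5%). Differences between these classes were not tested. Only 18 of the 343 members with a TomatoPan identifier were tested, of which 8 rose and 4 fell. Of the 153 other genes with such an identifier that were tested, 36.6% rose and 11.1% fell, and the difference was not tested. Without WT replicate 2, which leaves a single WT library, the members called numbered 175 up and 174 down.

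Both genes were tested in 308 pairs: 252 convergent, 24 divergent and 32 nested. In 433 pairs only 1 gene was tested and in 157 neither was, and 58 pairs had no read on either strand. Among the 308, 49 pairs moved apart, with 1 gene called up and the other down. In 13 pairs both genes rose and in 17 both fell, so that 30 pairs moved together. In 155 pairs only 1 of the genes was called (76 up, 79 down), and in 74 neither was. Pairs that moved apart thus made up 62.0% of the 79 pairs with both genes called. In 5 of the 13 and in 3 of the 49, a gene rose from at most 3 counts in both WT libraries. The filter admits such a gene only if it is high in *ddm1*, so it had to differ. With at least 10 counts required in every library, 41 pairs moved apart, 9 rose together and 16 fell together. Across the 308 pairs the log2 fold changes of the plus and the minus gene had a Pearson r of 0.07 and a Spearman rho of -0.10. The pairs share the same 4 libraries, and some share a gene.

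**Figure D1:**
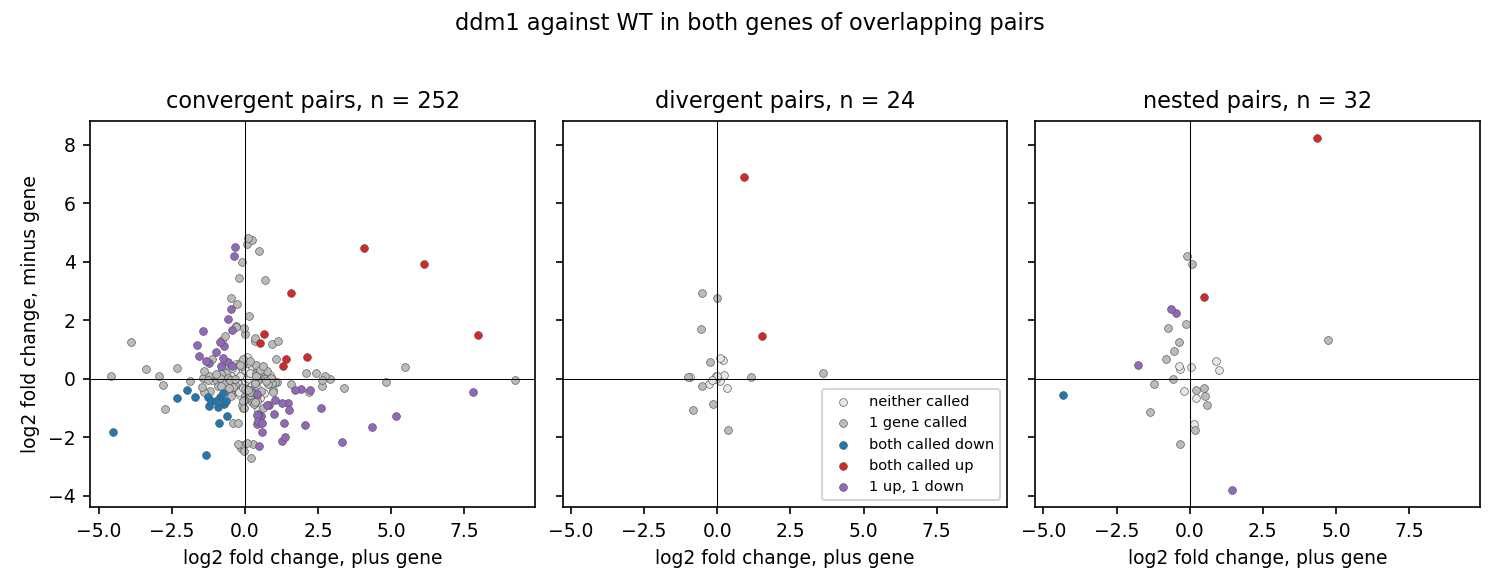
Log2 fold change (*ddm1* against WT) of the plus gene (x axis) and the minus gene (y axis) of each pair with both genes tested, for 252 convergent, 24 divergent and 32 nested pairs; each point is a pair, coloured by its calls. Of the 49 pairs called in opposite directions, 45 were convergent, 4 nested and 0 divergent.

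The counts of pairs depended on single libraries. Without WT replicate 2 there were 20 pairs apart, 8 both up and 7 both down, and without WT replicate 1 there were 31 apart and 11 both down. Without *ddm1* replicate 2 there were 7 pairs both up. DESeq2 called 33 pairs apart, 8 both up and 14 both down. The share of pairs moving apart among those with both genes called ranged from 8 of 16 pairs, with an overlap of at least 50% of the shorter gene, to 62.3%, with only pairs whose genes are in no other pair.

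Of the 252 convergent pairs, 45 moved apart (17.9%), 9 rose together and 16 fell together. Neither gene was called in 21.8%. None of the 24 divergent pairs moved apart, while 2 rose together and 11 had no gene called. Of the 32 nested pairs, 4 moved apart, 2 rose together and 1 fell together. For comparison, neighbouring genes without any overlap and at most 1000 bp apart were read from the same fit. In 1522 convergent neighbours 12.6% moved apart and 10.9% moved together. In 191 divergent neighbours these shares were 4.71% and 14.1%, and in 1698 neighbours on the same strand 5.30% and 18.7%. Pairs moving apart were 64.3% of the convergent overlapping pairs with both genes called, 53.6% of such convergent neighbours, 9 of 36 divergent neighbours and 22.1% of neighbours on the same strand. In convergent neighbours the log2 fold changes of the 2 genes had a Pearson r of 0.06 and a Spearman rho of -0.02. In convergent overlapping pairs these were 0.02 and -0.13. Divergent neighbours had 0.43 and 0.15, and neighbours on the same strand 0.65 and 0.41. The difference between overlapping pairs and neighbours was not tested. With neighbours up to 5000 bp apart, 11.4% of convergent pairs moved apart, 11.4% moved together and 55.6% changed the ratio of their genes (tested as described next). These shares were 8.32%, 12.1% and 46.9% in divergent neighbours, where pairs moving apart rose to 40.6% of those with both genes called, and 7.22%, 17.1% and 44.0% in neighbours on the same strand.

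**Figure D2:**
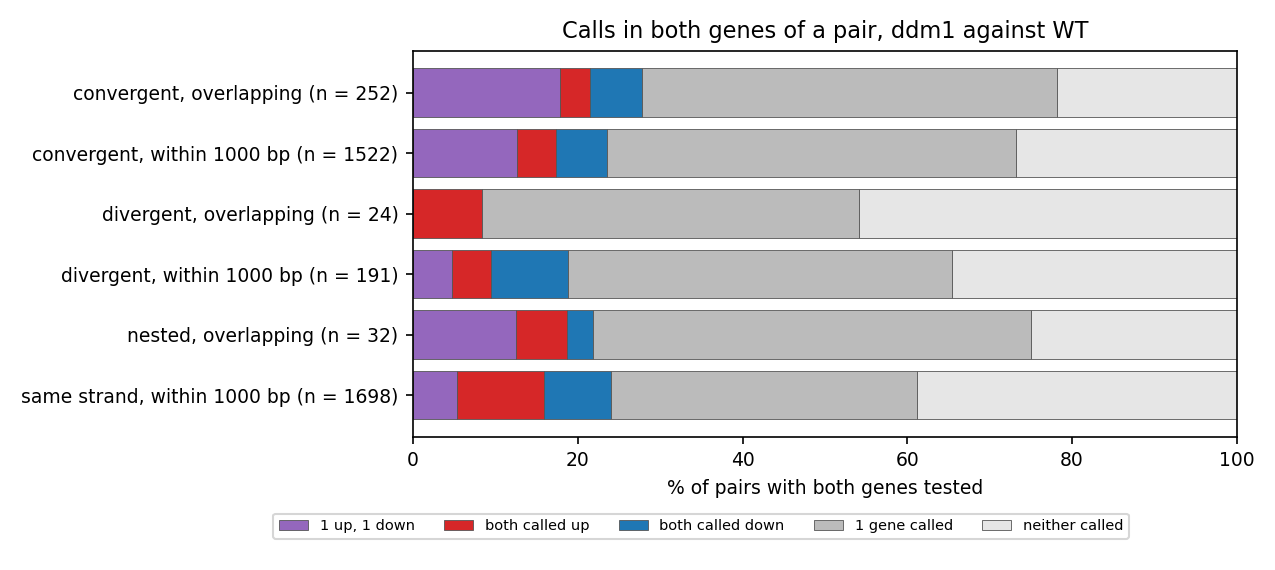
Share of pairs (x axis, % of pairs with both genes tested) by the calls of their genes, for overlapping pairs and for neighbours without overlap at most 1000 bp apart. Purple marks pairs with 1 gene up and the other down, which were 17.9% of convergent overlapping pairs, 12.6% of convergent neighbours and 5.30% of neighbours on the same strand.

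The difference between the fold changes of the 2 genes was then tested in each pair, by an edgeR fit of the plus to minus ratio with the library as a term. The ratio changed in 176 of the 308 pairs (57.1%), in favour of the plus gene in 92 and of the minus gene in 84. In neighbours at most 1000 bp apart, the ratio of the 2 genes changed in 56.3% of convergent, 40.8% of divergent and 34.9% of same-strand pairs. By geometry, 146 convergent (57.9%), 10 divergent (41.7%) and 20 nested pairs (62.5%) changed their ratio. All 49 pairs that moved apart passed this test, as did 4 of the 13 pairs that rose together, 7 of the 17 that fell together and 111 of the 155 with 1 gene called. Opposite calls on the same counts all but ensure that a pair passes. The 192 convergent neighbours at most 1000 bp apart that moved apart all passed too. Of the 132 pairs that did not pass, 65 had a 95% interval of the difference within 1 log2 unit on either side of 0. For the others the data leave room for a larger difference. With either *ddm1* library left out, 85 pairs passed.

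These outcomes did not rise or fall steadily with the length of the overlap. Of the convergent pairs with both genes called, those moving apart were 20 of 28 with an overlap under 100 bp, 12 of 21 from 100 bp to under 300 bp, 7 of 10 from 300 bp to under 1000 bp and 6 of 11 with at least 1000 bp. The ratio changed in 61.9%, 49.3%, 63.3% and 57.6% of the pairs in these classes. In 43 of the 308 pairs, the gene with the higher level per kb switched between WT and *ddm1*. A switch required the same order in both libraries of a genotype. Among convergent overlapping pairs 36 of 252 switched (14.3%), and among convergent neighbours 229 of 1522 (15.0%). Of the 43 switches, 40 passed the ratio test.

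The 4 pairs with the largest difference, among those that moved apart and had a mean log2 CPM of at least 3 in both genes, were all convergent, and in each the plus gene rose and the minus gene fell. Over all 49 pairs the plus gene was the rising one in 29 and the minus gene in 20. The first lies at chr2:51043928-51048769, where the genes share 1236 bp (chr2:51046997-51048232). Its plus gene, Solyc02g089510.3, had 15 and 18 counts in WT and 960 and 522 in *ddm1*, and its minus gene, Solyc02g089520.2, had 125 and 137 in WT and 58 and 79 in *ddm1*. The plus gene was thus near the bottom of its range in WT and the stronger strand in *ddm1*. The log2 fold changes were 5.18 (standard error 0.43) and -1.25 (standard error 0.24), with adjusted p = 0.000356 and 0.00593 by edgeR, and their difference was 6.36 ± 1.44 (95% half-width, edgeR adjusted p = 0.00322).

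The second pair lies at chr1:75780785-75788238, with an overlap of 248 bp. Its plus gene, Solyc01g086680.4, had 17 and 10 counts in WT and 323 and 367 in *ddm1*, a log2 fold change of 4.35 (standard error 0.24). Its minus gene, Solyc01g086690.2, had 54 and 112 counts in WT and 37 and 29 in *ddm1*, a log2 fold change of -1.65 (standard error 0.45). The 2 WT libraries differed from each other in this minus gene by more than the *ddm1* libraries did, and without WT replicate 2 its fall no longer passed (log2 fold change -0.97, edgeR adjusted p = 0.143). The difference between the genes was 5.93 ± 1.60 (95% half-width, edgeR adjusted p = 0.00322).

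The third pair, at chr7:61440750-61451560, overlaps by only 58 bp at the 3′ ends. The plus gene had 19 and 9 counts in WT and 194 and 153 in *ddm1*, while the minus gene had 1451 and 1495 in WT and 345 and 473 in *ddm1*. The strand with most reads was the minus strand in every library, yet its lead shrank. The log2 fold changes were 3.32 (standard error 0.37) and -2.17 (standard error 0.15), a difference of 5.48 ± 1.14 (95% half-width, edgeR adjusted p = 0.00297). In the fourth pair, at chr12:6573212-6578684 with an overlap of 921 bp, the plus gene had 132 and 82 counts in WT and 605 and 504 in *ddm1*. The minus gene had 394 and 296 counts in WT and 108 and 177 in *ddm1*. The order of the 2 strands by reads was therefore opposite in the genotypes, with log2 fold changes of 2.07 (standard error 0.22) and -1.59 (standard error 0.23) and a difference of 3.70 ± 1.04 (95% half-width, edgeR adjusted p = 0.00322). Over all 49 pairs the rising gene had a median log2 fold change of 1.25, from 0.40 to 7.80, and the falling gene values from -0.33 to -3.79. In 12 pairs both exceeded 1 in size.

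**Figure D3:**
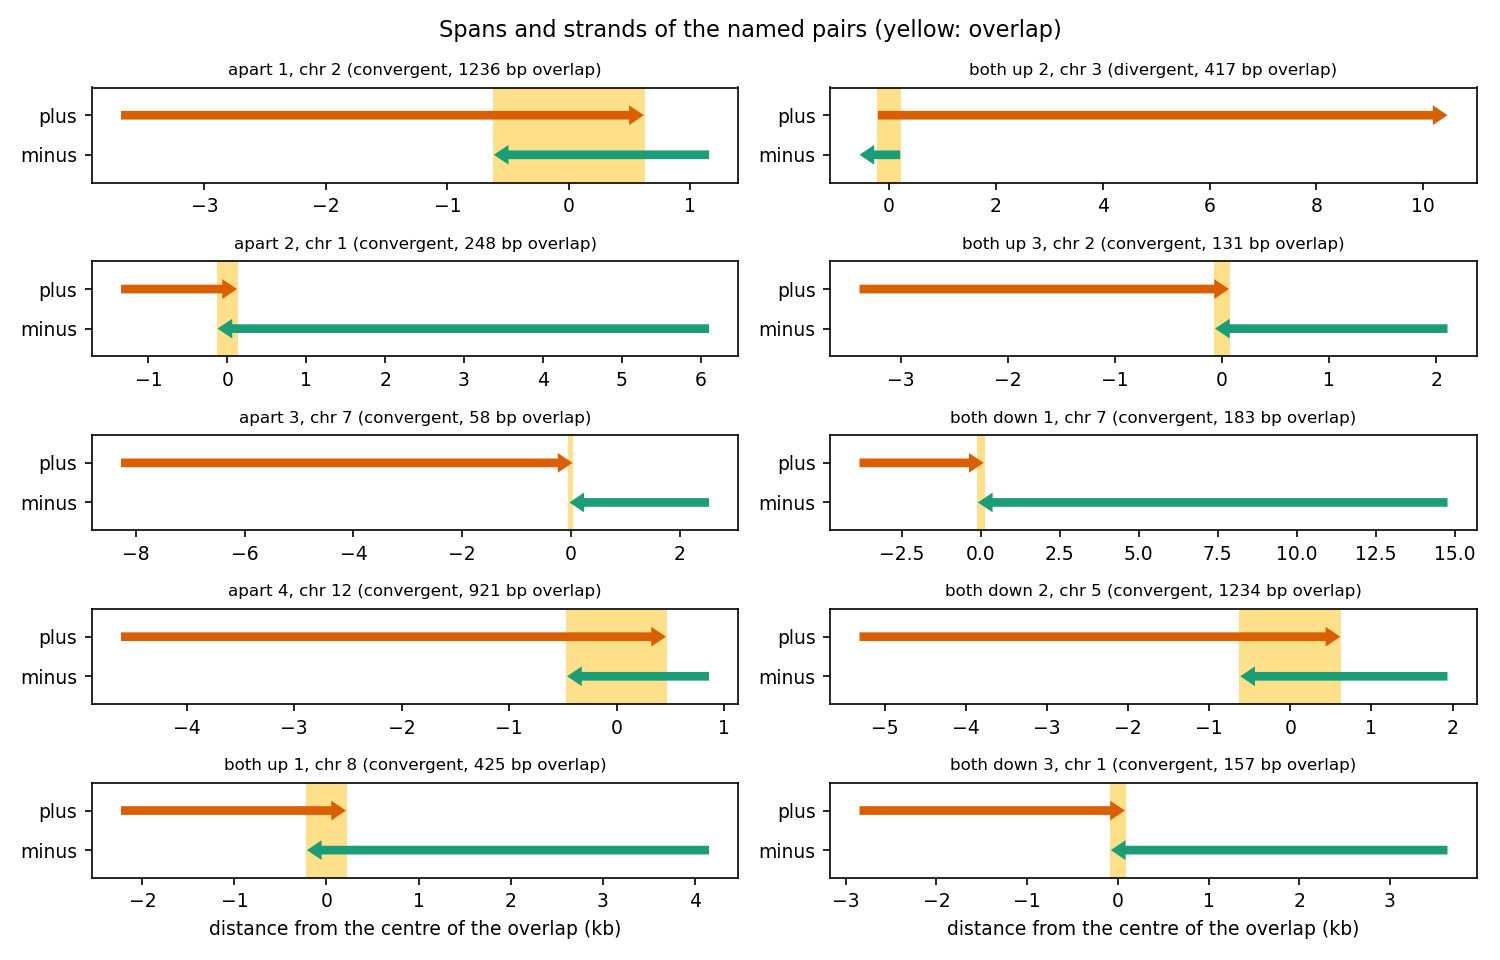
Spans of the 2 genes of the 10 named pairs that moved apart, rose together or fell together, with distance from the centre of the overlap in kb on the x axis and the strand on the y axis; arrowheads mark the 3′ end and yellow the overlap. All are convergent, with overlaps from 58 to 1236 bp, except the second pair that rose together, which is divergent with 417 bp.

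Of the pairs that rose together, 9 were convergent, 2 divergent and 2 nested. The first of the named pairs lies at chr8:63777057-63783444 and shares 425 bp. The plus gene had 245 and 143 counts in WT and 665 and 758 in *ddm1*, and the minus gene 144 and 142 in WT and 1449 and 1237 in *ddm1*. Both genes were higher in every *ddm1* library than in either WT library, and the minus gene rose more. The log2 fold changes were 1.57 (standard error 0.20) and 2.92 (standard error 0.15), and their difference passed the ratio test (-1.32 ± 0.77, 95% half-width, edgeR adjusted p = 0.0176). That difference was lost without *ddm1* replicate 1 (edgeR adjusted p = 0.113) or replicate 2 (edgeR adjusted p = 0.0566).

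The divergent pair at chr3:56416983-56427992 shares 417 bp at the 5′ ends. Its plus gene had 87 and 85 counts in WT and 325 and 288 in *ddm1*, and its minus gene had 87 and 100 in WT and 306 and 333 in *ddm1*. The 2 genes had nearly equal counts in each library. The log2 fold changes were 1.52 (standard error 0.17) and 1.45 (standard error 0.17), and the difference of 0.06 ± 0.71 (95% half-width) did not pass (edgeR adjusted p = 0.872). The third pair, at chr2:53693391-53698882, rose less. Its plus gene had 196 and 163 counts in WT and 298 and 340 in *ddm1* (log2 fold change 0.52, standard error 0.14), and its minus gene 159 and 85 in WT and 337 and 372 in *ddm1* (1.23, standard error 0.24). DESeq2 did not call the plus gene (adjusted p = 0.0754), nor did edgeR without *ddm1* replicate 2 (adjusted p = 0.0759) or without WT replicate 2 (adjusted p = 0.0984).

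Of the 17 pairs that fell together, 16 were convergent and 1 nested. At chr7:857605-876217, where the genes share 183 bp, the plus gene had 281 and 302 counts in WT and 10 and 22 in *ddm1*. The minus gene had 2523 and 2991 counts in WT and 896 and 1050 in *ddm1*. Both strands were lower in *ddm1*, and the weaker strand fell further, with log2 fold changes of -4.50 (standard error 0.30) and -1.82 (standard error 0.15) and a difference of -2.69 ± 0.73 (95% half-width, edgeR adjusted p = 0.00322). At chr5:6362545-6369791, with an overlap of 1234 bp, the plus gene had 127 and 137 counts in WT and 63 and 68 in *ddm1*. The minus gene had 628 and 524 counts in WT and 73 and 166 in *ddm1*. The log2 fold changes were -1.33 (standard error 0.22) and -2.59 (standard error 0.30). The minus gene varied more between the *ddm1* libraries than the plus gene. Their difference (1.34 ± 1.11, 95% half-width, edgeR adjusted p = 0.0472) was lost without *ddm1* replicate 1 (edgeR adjusted p = 0.152), without WT replicate 1 (edgeR adjusted p = 0.107), with every gene with a count tested (edgeR adjusted p = 0.0693) and with the replicate number as a block (edgeR adjusted p = 0.0853).

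The third pair that fell together, at chr1:83280551-83287035, showed close values. Its plus gene had 939 and 968 counts in WT and 476 and 544 in *ddm1*, and its minus gene had 282 and 296 in WT and 183 and 192 in *ddm1*. The log2 fold changes were -1.22 (standard error 0.11) and -0.94 (standard error 0.14), and the difference of -0.28 ± 0.35 (95% half-width) did not pass (edgeR adjusted p = 0.134). Over all pairs that moved together, the genes that rose had a median log2 fold change of 1.52 and those that fell one of -0.90.

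**Figure D4:**
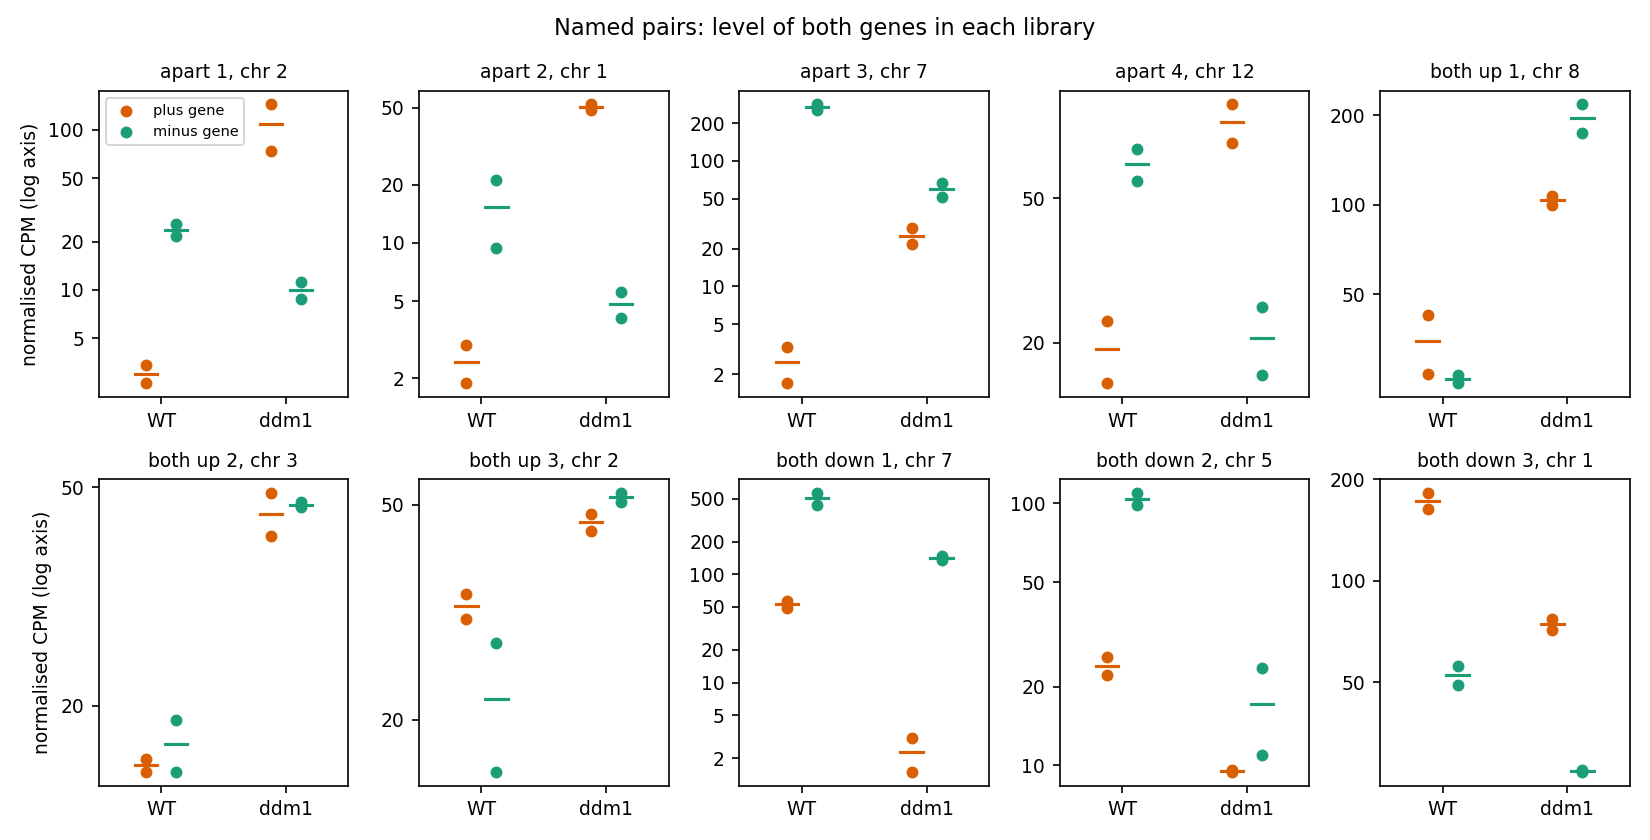
Normalised CPM (log axis) of the plus gene (orange) and the minus gene (green) in each library of WT and *ddm1* for the 10 named pairs; each point is a library and the bar is the mean of 2. In the 4 pairs labelled apart the orange points rise and the green points fall, as in the pair on chromosome 2, where the plus gene had 15 and 18 counts in WT and 960 and 522 in *ddm1*.

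The 2 well expressed pairs with the longest overlap had different outcomes. At chr12:36974279-36986705 a minus gene of 4948 bp lies inside a plus gene that belongs to 4 pairs. The outer plus gene had 288 and 273 counts in WT and 345 and 291 in *ddm1*, a log2 fold change of -0.13 (standard error 0.15, edgeR adjusted p = 0.506). The inner minus gene had 39 and 29 counts in WT and 143 and 170 in *ddm1*, a log2 fold change of 1.89 (standard error 0.25, edgeR adjusted p = 0.0015). The difference of -2.03 ± 0.84 (95% half-width) passed (edgeR adjusted p = 0.00777), so that the inner strand gained on the outer. In the convergent pair at chr11:59106754-59116564, which shares 4335 bp or 98.1% of the shorter gene, neither gene was called. Its plus gene had 76 and 101 counts in WT and 149 and 99 in *ddm1*, and its minus gene 254 and 188 in WT and 291 and 332 in *ddm1*. The normalised difference was -0.03 ± 1.15 (95% half-width), an interval wide enough to hold a 2-fold difference in either direction.

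Most inner genes of nested pairs had no reads in these libraries. Of the 416, 254 had 0 reads in all libraries, against 7717 of the 35821 genes of the whole table. Inner genes had a median length of only 249 bp, so a lack of reads need not mean that a gene was silent. In 288 pairs only the outer gene was tested. In the 164 nested pairs whose outer gene had at least 1000 reads over the 4 libraries, the inner gene had 0 reads in 78, and its reads per bp were at most 1% of those of the outer gene in 87 and at most 5% in 122. The median was 0.647%. In 8 of the 164 pairs the inner gene had more reads per bp than the outer. The highest ratio was at chr10:1130179-1142221, a pair named here after its values were seen. There the inner minus gene of 2073 bp had 667 and 729 counts in WT and 669 and 716 in *ddm1*, and the outer plus gene had 201 and 177 in WT and 305 and 354 in *ddm1*. The outer gene rose (log2 fold change 0.49, edgeR adjusted p = 0.0205), and the inner gene was not called (log2 fold change -0.33, edgeR adjusted p = 0.0532).

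**Figure D5:**
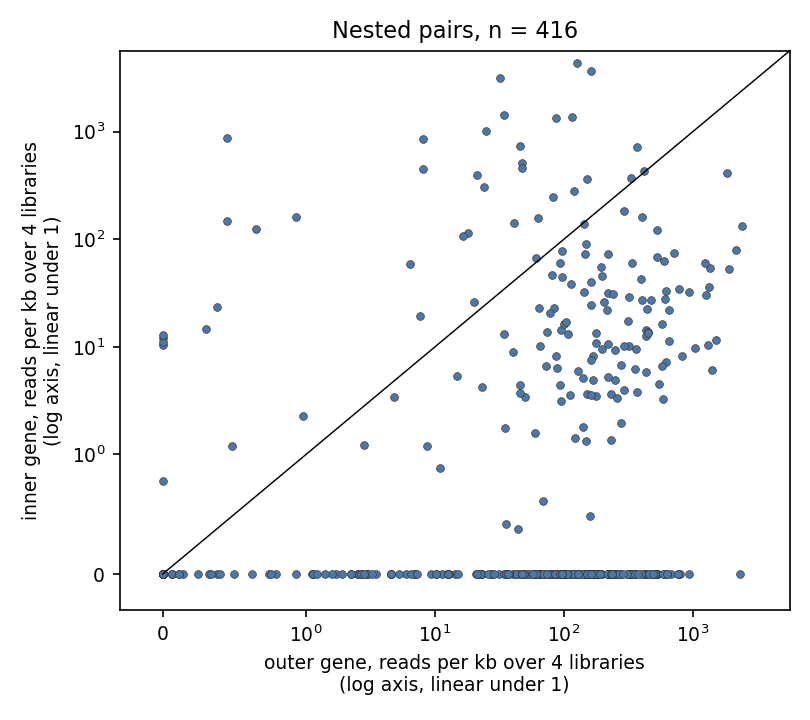
Reads per kb over the 4 libraries of the inner gene (y axis) against the outer gene (x axis) for the 416 nested pairs, on log axes that are linear under 1; the line marks equal values. The row of points at 0 holds the 254 inner genes without a read.

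Of the 32 nested pairs with both genes tested, 8 inner genes rose and 9 fell, and 8 outer genes rose and 6 fell. These counts were near the background of 25.3% up and 23.7% down. The 4 nested pairs that moved apart are given here, of which 3 were chosen after their values were seen. At chr7:67764273-67769495 the outer plus gene had 288 and 210 counts in WT and 785 and 878 in *ddm1* (log2 fold change 1.43, standard error 0.14). The inner minus gene, of 119 bp, had 19 and 28 counts in WT and 2 and 2 in *ddm1*, a ratio of 14.6 in favour of WT (95% counting interval 5.34 to 55.8, Clopper-Pearson). The outer gene was thus higher in *ddm1*. At chr7:66774187-66787754 the inner gene of 609 bp had 300 and 307 counts in WT and 87 and 135 in *ddm1* (log2 fold change -1.77), while the outer gene had 283 and 293 in WT and 531 and 472 in *ddm1* (0.49). At chr2:40151462-40152656 the inner gene of 798 bp had 768 and 769 counts in WT and 679 and 711 in *ddm1* (-0.46), while the outer gene had 12 and 16 in WT and 48 and 119 in *ddm1* (2.23). At chr7:57220096-57223460 the inner gene had 1 and 10 counts in WT and 30 and 43 in *ddm1* (2.38). The outer gene had 1739 and 1671 in WT and 1343 and 1389 in *ddm1* (-0.63). This inner gene had under 2% of the normalised reads of its outer gene and passed the low-count filter mainly through *ddm1*. The inner gene of 119 bp passed it only through WT. Nothing is read from the direction of either inner gene, nor from the count of these 2 pairs among those that moved apart.

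Some members with almost no reads in WT were well above 0 in *ddm1*. Of the members, 42 were called up from at most 3 counts in both WT libraries, against 5.27% of all genes tested, and 3 were called down to at most 3 counts in both *ddm1* libraries, against 0.676%. The filter admits a gene that is near 0 in one genotype only if it is high in the other, so these genes had to differ. The 42 genes lay on all the chromosomes, with 7 on chromosome 9 and 6 on chromosome 3, and were in 44 pairs. Their partners were called up in 5 pairs, down in 3, not called in 11 and not tested in 25, and 14 of the partners had 0 reads. In 0 pairs were both genes called up from the floor, a count that leaves out the 25 pairs with an untested partner. The member with the highest mean level among the 42 is the minus gene of a convergent pair at chr3:54449511-54455230, which shares 1689 bp. It had 566 and 534 counts in *ddm1* against 0 in the WT libraries. Its level in *ddm1* was at least 148-fold higher, a bound that sets the *ddm1* mean against 3 counts per WT library. Its partner on the plus strand had 10 and 12 counts in *ddm1* and 0 in both WT libraries, too few to be tested. At chr3:54129149-54131432 a plus gene had 1 and 0 counts in WT and 289 and 226 in *ddm1*, a ratio of 415 (95% counting interval 74.1 to 16405, Clopper-Pearson), and the inner minus gene of 80 bp had 0 reads in every library. Among the falling genes, the outer plus gene at chr6:49284368-49287742 had 19 and 15 counts in WT and 3 and 1 in *ddm1*, a ratio of 10.6 in favour of WT (95% counting interval 3.77 to 41.0, Clopper-Pearson), with an inner gene of 54 bp that had 0 reads. Intervals and bounds cover counting error only.

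In 11 of the 308 pairs the weaker gene had under 2% of its partner's normalised reads, with the weaker gene on the minus strand in all of them. The ratio changed in all 11, in 10 of them in favour of the minus gene. A gene this weak passed the low-count filter mainly through the genotype where it was higher, so nothing is read from this count. The part of reads counted on the wrong strand was not tested. Across these 11 pairs, of which 2 share their minus gene, the log2 fold changes of the genes had an r of 0.68 and a rho of 0.69. These values rest on the same weak genes, so nothing is read from them either. In 57 pairs with 2 to 10% the r was 0.16 and the rho 0.06. In 72 pairs with 10 to 30% they were 0.25 and -0.01, and in 168 pairs with 30 to 100% they were -0.08 and -0.22. In the last class 31 pairs moved apart and 15 together. Without the 11 pairs, 47 pairs moved apart, 12 rose together and 17 fell together.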

How the data were processed

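RNA-seq libraries (single-end, directional, poly(A) workflow) of 2 *ddm1* and 2 WT leaf samples were analysed. The authors deposited unnormalised read counts for each gene. Their steps were trimming (Trimmomatic 0.38), mapping to the M82 V1.0 assembly (Hisat2), removal of PCR duplicates and counting (featureCounts 2.0.0). The file header gives strand option 2 (reverse-stranded), a mapping quality of at least 30, multi-mapping reads allowed and whole gene spans. Duplicate removal caps highly expressed genes, and the densest member had 1.19 reads per bp in a library. The limit on mapping quality removes reads whose place is uncertain, so near-identical copies can lose reads and their counts are uncertain.

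Genes were filtered with filterByExpr (minimum count 10), normalised by TMM and tested with edgeR 4.0.16 in R 4.3.3 by glmQLFTest on the genotype, with Benjamini-Hochberg adjustment over 21289 genes. The ratio test was an edgeR fit with 1 row per pair and library, strand and strand by genotype as terms. DESeq2 1.42.0 was an alternative. Both edgeR fits and the DESeq2 gene fit were tested on simulated data. Depth was 5462981 to 6887057 counts per library. A bound or ratio is given for named genes with at most 3 counts in both libraries of a genotype.

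Named pairs had both genes tested, each at a mean of 3 or more on the log2 CPM scale: the 4 with the largest difference among pairs moving apart, the 3 with the largest smaller change among pairs rising and among pairs falling together, and the 2 with the longest overlap. In addition, without the level minimum, the 2 pairs with the highest member called up from the floor of 3 counts, and the 2 with the highest called down to it, were named. The table of names (SLM_r2.1) matched 0 members, so identifiers are printed for only 2 genes that rose and 2 that fell. The members and lists were chosen with earlier results of these data known. The sources name no batches, and a batch split by genotype cannot be told apart from the genotype. No sequences are shown. The paper's ChIP-seq, Hi-C and TE data were not used here.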

Additional observations from a re-analysis of the deposited data

How the results depend on the processing

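Against 256 members called up, 265 called down, 13 pairs both up, 17 both down, 49 apart and 176 with a changed ratio, these counts moved by more than 1.5 times. An absolute log2 fold change over 1 gave 155, 129, 6, 2 and 12, and an adjusted p-value under 0.01 gave 169, 166, 6, 7, 17 and 84 changed ratios. Both remove calls by construction. DESeq2 gave 8 pairs both up. An overlap of at least 100 bp gave 29 apart and 114 changed ratios, and one of at least 50% of the shorter gene 118, 105, 5, 3, 8 and 35. Leaving out pairs whose weaker gene, tested or not, had under 2% of its partner's reads kept 633 of the 1019 members tested. Of these, 160 rose and 163 fell. These 3 choices of pairs hold fewer genes by construction. Leaving out 1 library at a time, the counts ranged from 175 to 220 up, 174 to 224 down, 7 to 13 both up, 7 to 15 both down, 20 to 36 apart and 85 to 176 changed ratios, with the lone library of a genotype assumed to vary like the others. The log2 ratio of the share of counts in members (-0.04) ranged from -0.05 to -0.03 with a library left out and was 0.0045 with an overlap of at least 50% of the shorter gene.

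The counts stayed within 1.5 times under RLE factors, other filters on low counts, total counts as library size (added after seeing the data), and only pairs whose genes are in no other pair. With the replicate number as a block there were 249 members up, 255 down, 13 pairs both up, 18 both down, 47 apart and 162 with a changed ratio. Replicate numbers follow the sample titles, while the deposited column names number the *ddm1* libraries differently. The numbers do not pair the libraries (same-numbered libraries deviate from their group means with a correlation of 0.0036). Of 413 values of named genes and pairs under the alternatives, 396 kept their direction and side of the threshold, 10 lost the call and 7 changed sign, all of them values that had not passed the test and all with a library left out. With a library left out, in the pair at chr11:59106754-59116564 the log2 fold change of the plus gene (0.17) ranged from -0.17 to 0.47, and the difference of its genes (-0.03) from -0.45 to 0.39. In the divergent pair at chr3:56416983-56427992 the difference (0.06) ranged from -0.092 to 0.20. The log2 fold change of the outer gene at chr12:36974279-36986705 (-0.13) ranged from -0.27 to 0.029. At this depth, inner genes with few reads give ratios with wide counting intervals only.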
